A study of Caenorhabditis elegans with 6 samples.

Results

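The UDP-glycosyltransferase genes of *Caenorhabditis elegans* carry the name ugt and a number, and they were taken here by that name. The deposited tables listed 65 such genes among the 23470 genes in either table. A member was kept when at least 2 libraries of a table had at least 10 normalized reads, which are the reads on a gene divided by a size factor of its library. With this rule, 59 of the 65 genes were kept in at least 1 table and 58 in both. The kept members numbered 58 in the overexpression table and 59 in the knockout table.

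RNA of whole worms on adult day 1 was sequenced in 3 groups of 2 libraries. The *hlh-30* ox worms were an overexpression line labelled GMC101ox. The study's overexpression strains carry hlh-30p::hlh-30::GFP, in which the promoter of *hlh-30* drives an HLH-30 protein fused to GFP, and the labels do not say which of them was sequenced. The *hlh-30* ko worms were labelled as a mutant of GMC101, and the study's knockout strain carries the deletion hlh-30(syb6883), which removes the first exons, with dvIs100, the Aβ array of GMC101. The control worms were GMC101, labelled WT, which express human Aβ1–42 in body wall muscle from the *unc-54* promoter and GFP in the intestine from the *mtl-2* promoter. The control is therefore not a wild-type worm. Aβ was induced by a shift to a higher temperature in all groups, and the series description names the strain CL4176 where the libraries' labels name GMC101. In CL4176 the *myo-3* promoter drives Aβ. The labels do not say that the libraries of a group came from separate cultures, so p-values measure the spread between libraries, which may be technical.

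UDP-glycosyltransferases move a sugar from a nucleotide sugar, such as UDP-glucose or UDP-glucuronic acid, to small lipophilic molecules. This conjugation is the second phase of detoxification, after oxidation by cytochrome P450 enzymes, and it makes compounds more soluble before transporters export them. In worms the family is large, many members are expressed in the intestine, and several respond to drugs and other foreign compounds. HLH-30 is the worm ortholog of TFEB, a basic helix-loop-helix transcription factor that induces lysosome and autophagy genes in response to starvation and stress.

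Depth was even, from 18097925 to 19300834 reads on genes in a library, and the 10 most abundant genes held 6.40% to 7.01% of them. The same 2 control libraries served both comparisons, normalized separately in each table. Normalized reads of *hlh-30*, the gene that was changed, were 6022 and 5693 in ox libraries, against 3102 and 3315 in control libraries. This gave it a log2 fold change of 0.87 (standard error, SE, 0.06, adjusted p = 3.97e-06, limma with Benjamini-Hochberg adjustment). In ko libraries *hlh-30* had 2104 and 3005 normalized reads, against 3049 and 3258 in control libraries of that table (adjusted p = 0.511, limma with Benjamini-Hochberg adjustment). These are reads over the whole gene, so exons outside the deletion contribute and the level does not check the ko label. The collagen gene *rol-6*, whose mutant form is a marker of transformation, had 1030 and 1012 normalized reads in ox libraries, against 31.7 and 14.2 in control libraries. Of the study's overexpression strains, this marker is listed for HBW001, made from CL4176, and for HBW003, made from GMC101 with an *lgg-1* reporter, but not for HBW002, made from GMC101 alone. A listed genotype may leave out a marker, so the level of *rol-6* does not tell which of the 3 was sequenced. The background of the ox worms, and with it their Aβ and GFP transgenes, is thus uncertain, and a difference of background cannot be told apart from *hlh-30* overexpression in the ox comparison.

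The members were of very unequal abundance in control worms. Per kb of gene length, 28 of the 65 listed genes had at least 100 normalized reads in the mean of the control libraries, 28 had from 10 up to 100 and 9 had fewer than 10. The median over the 65 genes was 75.6 per kb. The 5 highest members, *ugt-17*, *ugt-25*, *ugt-2*, *ugt-23* and *ugt-58*, held 31.5% of the summed level per kb. The highest of them, *ugt-17*, had 584 and 485 normalized reads per kb in ox libraries, against 670 and 658 in control libraries. Second came *ugt-25*, with 761 and 772 per kb in ox libraries and 646 and 668 per kb in control libraries. The control values of *ugt-17*, *ugt-25* and *ugt-2* overlapped, so the order among these genes was not larger than the spread between the libraries. Below them, *ugt-2* had 690 and 691 per kb in ox libraries and 550 and 666 per kb in control libraries. The fourth, *ugt-23*, had 659 and 590 per kb in ox libraries and 490 and 529 per kb in control libraries. The fifth, *ugt-58*, had 514 and 524 per kb in ox libraries and 454 and 507 per kb in control libraries, and its control values overlapped those of *ugt-23*. At the other end, *ugt-35* was listed at 0 in both control libraries.

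**Figure D1:**
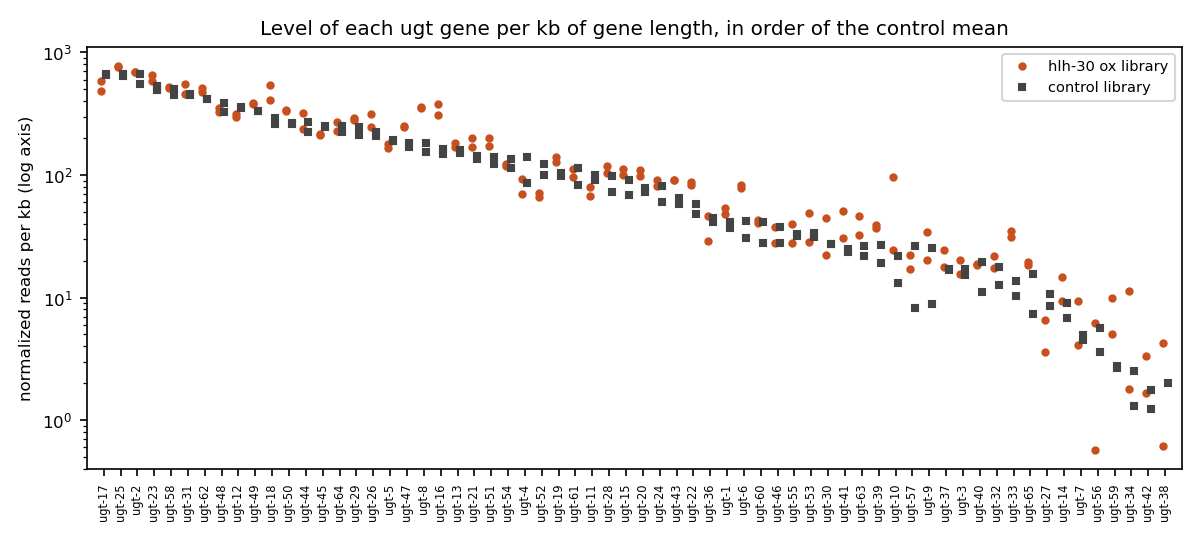
Normalized reads per kb of gene length (log axis) of the listed ugt genes in the 2 ox libraries (circles) and the 2 control libraries (squares), in order of the control mean; *ugt-35* and other values at 0 cannot be drawn on this axis. The levels span from *ugt-17*, at a control mean of 664 per kb, to genes with a few reads.

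The rule on low values left out *ugt-34*, *ugt-35*, *ugt-38*, *ugt-42*, *ugt-56* and *ugt-59* in both tables. Close to the limit, *ugt-27* was kept in the overexpression table with 5.76 and 10.6 normalized reads in ox libraries, against 13.8 and 17.2 in control libraries. Also kept there was *ugt-14*, with 15.4 and 24.0 normalized reads in ox libraries and 14.8 and 11.1 in control libraries. Just outside was *ugt-7*, with 6.72 and 15.4 normalized reads in ox libraries and 7.40 and 8.11 in control libraries. The knockout table kept *ugt-7*, the only member kept in 1 table alone, with 12.2 and 12.03 normalized reads in ko libraries, against 7.28 and 7.97 in control libraries. Genes left out had few reads in every group. In the overexpression table *ugt-34* had 2.88 and 18.2 normalized reads in ox libraries and 2.12 and 4.05 in control libraries. In the same table *ugt-59* had 7.68 and 15.4 normalized reads in ox libraries and 4.23 and 4.05 in control libraries. Of the 58 members kept in the overexpression table, 57 had at least 10 normalized reads in every library, and *ugt-27* was the other one.

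All 65 genes were found by symbol in the Ensembl annotation of WBcel235, release 115, and all 65 spans in the tables overlapped the annotated ones. The family sits mostly on chromosome V, with 41 genes, and the others are on IV (12), I (5), X (4), III (2) and II (1). Their coding sequences are alike in size, from 501 residues in *ugt-64* to 558 in *ugt-57* with a median of 530, over 4 to 11 exons. Within 20 kb of another member lay 36 genes, in 11 blocks, and the other 29 were alone. Neighbouring members are often close relatives, and reads that fit more than one copy may have been split or lost in the counting, so differences between neighbours are uncertain.

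With *hlh-30* overexpression, the ugt genes as a family were mostly higher than in control worms, by modest amounts. Of the 58 members tested, 12 passed an adjusted p under 0.05 (limma with Benjamini-Hochberg adjustment over 15918 genes, of which 14.8% passed), and 10 of them rose and 2 fell. Those that rose were 17.2% of the members tested, against 6.71% of all genes tested that rose. Those that fell were 3.45% of the members, against 8.06% of all genes tested. The median log2 fold change of the members was 0.30, against -0.0016 over all genes tested, and 47 of the 58 members lay above 0, against 49.8% of all genes. At a change of at least 2-fold as well, *ugt-6*, *ugt-8*, *ugt-16* and *ugt-33* rose and no member fell, against 1.72% of all genes that rose and 0.138% that fell by this measure.

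The summed reads of the 65 listed genes showed the same direction. They were 18878 and 18604 normalized reads in ox libraries, against 15789 and 16050 in control libraries. Both ox sums lay above both control sums.

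Markers of the intestine were also higher. In ox libraries 6.71% of all genes tested rose and 8.06% fell, and of the 8 intestinal markers 6 rose and 0 fell. The median log2 fold change of these markers was 0.64. Those that rose were *act-5*, *ifb-2*, *mtl-2*, *pept-1*, *elt-2* and *vha-6*, while *ges-1* and *asp-1* lay at -0.11 and -0.02. In each of the 6 that rose, both ox libraries lay above both control libraries, and in the other markers the groups overlapped. The summed reads of all 8 were 44222 and 56637 in ox libraries, against 44500 and 49300 in control libraries, which overlap. Most of these sums was *asp-1*, with 34659 and 44995 in ox libraries and 37974 and 42200 in control libraries. The sums thus say little of the other intestinal markers. Of 4 body wall muscle markers 3 fell, with sums of 103315 and 102804 in ox libraries, against 128582 and 127716 in control libraries. Most of these sums was *unc-54*, with 69795 and 69919 in ox libraries and 86068 and 82320 in control libraries. The Aβ transgene of GMC101 carries parts of *unc-54*, and its share in these reads was not tested. Of the sperm markers 2 of 5 fell and of the oocyte and germline markers 2 of 5 fell, of 6 hypodermal markers *rol-6* alone rose, and no pharyngeal or neuronal marker passed. No marker was at 0 in all libraries. In ko libraries none of the 35 markers passed (limma), with 0 by edgeR and 1, *mtl-2*, by DESeq2. At an unadjusted p under 0.05 there were 8 (limma), against 5.87% of all genes higher and 5.11% lower. The intestinal sums in ko libraries were 91120 and 42863, against 43733 and 48452 in control libraries. Again most was *asp-1*, with 77394 and 35994 in ko libraries and 37319 and 41474 in control libraries. The first ko library was also the higher for *elt-2*, *ifb-2*, *act-5*, *pept-1* and *vha-6*, and the lower for *ges-1* and *mtl-2*. The part of these markers in the ugt result was not tested, and in whole worms fewer cells of a type and less RNA per cell cannot be told apart.

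Among the members that passed the test, *ugt-33*, *ugt-6*, *ugt-16* and *ugt-8* rose by the most. All 4 are on chromosome V, and none of them was among the 5 most abundant members. The gene *ugt-8* (H23N18.3, V:4903930-4905942, plus strand) had 597 and 608 normalized reads in ox libraries, against 261 and 306 in control libraries. Its log2 fold change was 1.09 (SE 0.12, adjusted p = 1.61e-04, limma with Benjamini-Hochberg adjustment), the smallest adjusted p of the family. Both ox values were well above both control values. The gene *ugt-16* (ZC443.6, V:12825024-12827442, plus strand) had 548 and 680 normalized reads in ox libraries, against 291 and 266 in control libraries. This was a log2 fold change of 1.13 (SE 0.13, adjusted p = 2.12e-04, limma). Again the groups were separate, with the lower ox library above the higher control library. From the block next to it on the chromosome, *ugt-6* (ZC455.4, V:12795481-12798224, minus strand) had 139 and 131 normalized reads in ox libraries, against 51.8 and 70.9 in control libraries (log2 fold change 1.14, SE 0.24, adjusted p = 0.00672, limma). The least abundant of the genes that rose was *ugt-33* (C35A5.2, V:10493409-10496477, plus strand), with 57.6 and 50.9 normalized reads in ox libraries, against 16.9 and 22.3 in control libraries (log2 fold change 1.43, SE 0.35, adjusted p = 0.0159, limma). All 4 had ox libraries that did not overlap the control libraries.

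Less than 2-fold, *ugt-18* (ZC443.5, V:12820260-12822778, plus strand) rose to 690 and 904 normalized reads in ox libraries, against 438 and 485 in control libraries (log2 fold change 0.78, SE 0.12, adjusted p = 0.00161, limma). The gene *ugt-22* (C08F11.8, IV:13639260-13644567, plus strand) had 170 and 180 normalized reads in ox libraries and 98.4 and 120 in control libraries (log2 fold change 0.69, SE 0.19, adjusted p = 0.0280, limma). Exons of *ugt-22* overlap *srz-29* on the other strand, and the counting is not stated to use strand, so reads of such partners cannot be told apart. The gene *ugt-47* (R04B5.9, V:10096305-10098597, minus strand), which overlaps *srd-49* on the other strand, had 417 and 410 normalized reads in ox libraries and 300.4 and 279.7 in control libraries (log2 fold change 0.51, SE 0.12, adjusted p = 0.0123, limma). A change of the same size was found for *ugt-51* (C03A7.11, V:5175020-5177309, minus strand), with 335 and 286 normalized reads in ox libraries and 234 and 203 in control libraries (log2 fold change 0.51, SE 0.15, adjusted p = 0.0351, limma). In each of these genes the lower ox library was above the higher control library.

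The smallest increases that passed the test were in abundant genes on the X chromosome. The gene *ugt-50* (T07C5.1, X:12691573-12695652, plus strand), which overlaps *nhr-26* on the other strand, had 614 and 631 normalized reads in ox libraries and 484 and 491 in control libraries (log2 fold change 0.35, SE 0.10, adjusted p = 0.0264, limma). The gene *ugt-23* (C17G1.3, X:9922862-9925173, minus strand) had 1096 and 982 normalized reads in ox libraries and 814 and 880 in control libraries (log2 fold change 0.29, SE 0.09, adjusted p = 0.0399, limma). In both genes the lower ox library lay above the higher control library.

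Among the 12 members that passed the test, only *ugt-17* and *ugt-52* fell. The most abundant member, *ugt-17* (C08B6.1, V:10102592-10104964, minus strand), had 997 and 829 normalized reads in ox libraries, against 1144 and 1124 in control libraries (log2 fold change -0.32, SE 0.09, adjusted p = 0.0366, limma). The gene *ugt-52* (F56B3.7, IV:778784-784182, plus strand) had 117 and 109 normalized reads in ox libraries, against 200.97 and 164 in control libraries (log2 fold change -0.68, SE 0.19, adjusted p = 0.0279, limma). In both genes the higher ox library lay below the lower control library.

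**Figure D2:**
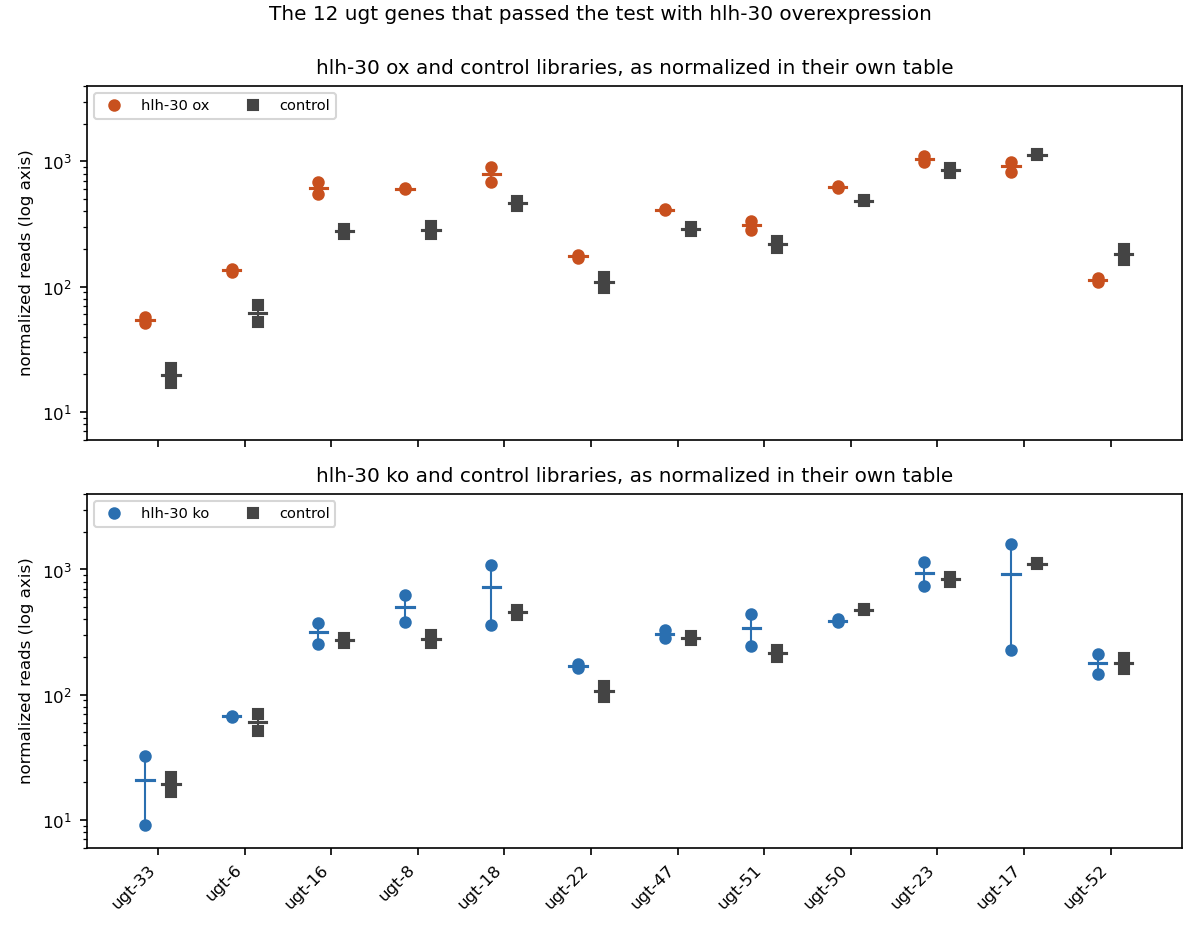
Normalized reads (log axis) of the 12 ugt genes that passed the test with *hlh-30* overexpression, in ox (upper panel, orange circles) or ko libraries (lower panel, blue circles) and control libraries (grey squares); short horizontal lines are the mean of 2 libraries and vertical lines join them. In the upper panel no ox library overlaps a control library of the same gene, and in the lower panel the ko libraries are far apart for *ugt-17*, *ugt-18* and *ugt-33*.

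The other 46 members did not pass the test, with log2 fold changes from -0.89 in *ugt-27* to 1.49 in *ugt-10*. Of these, 24 had both ox libraries above both control libraries and 5 had both below, while 17 overlapped. Over all 58 tested members, 58.6% were higher without overlap, against 27.9% of all genes, and 12.1% were lower, against 29.4% of all genes. Nearest to the threshold were *ugt-29*, *ugt-43* and *ugt-25*, with adjusted p of 0.0583, 0.0600 and 0.0603 (limma with Benjamini-Hochberg adjustment). The largest log2 fold change of the family was that of *ugt-10*, at 1.49, and it rested on 1 library. This gene had 39.4 and 154 normalized reads in ox libraries, against 34.9 and 21.3 in control libraries, and its adjusted p was 0.0688 (limma). On the log2 scale of normalized reads plus 1, only for *ugt-10* did the ox libraries differ from each other by more than 2-fold, and *ugt-30*, with 78.7 and 39.3 normalized reads, was just under it.

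These calls depend on the fit and rest on both control libraries. None of the members passed when genes with low reads were kept in the fit (23 at an unadjusted p under 0.05), when limma had no mean trend (17 unadjusted) or when all 6 libraries were fitted together (11 unadjusted), settings in which limma called 0, 3 and 13 genes of the whole table. Without either 1 of them no ugt gene passed the limma test, and no gene of the whole table did, whereas 15 members without the first and 17 without the second had an unadjusted p under 0.05. DESeq2 on the recovered reads called 5 of the 12 genes, *ugt-6*, *ugt-8*, *ugt-16*, *ugt-18* and *ugt-47*, all higher. These were 5 of the 58 members tested, a share no higher than the 11.3% of all genes tested that DESeq2 called in either direction. DESeq2 gave an adjusted p for 48 of the 58 members and none for the other 10, *ugt-33* among them.

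**Figure D3:**
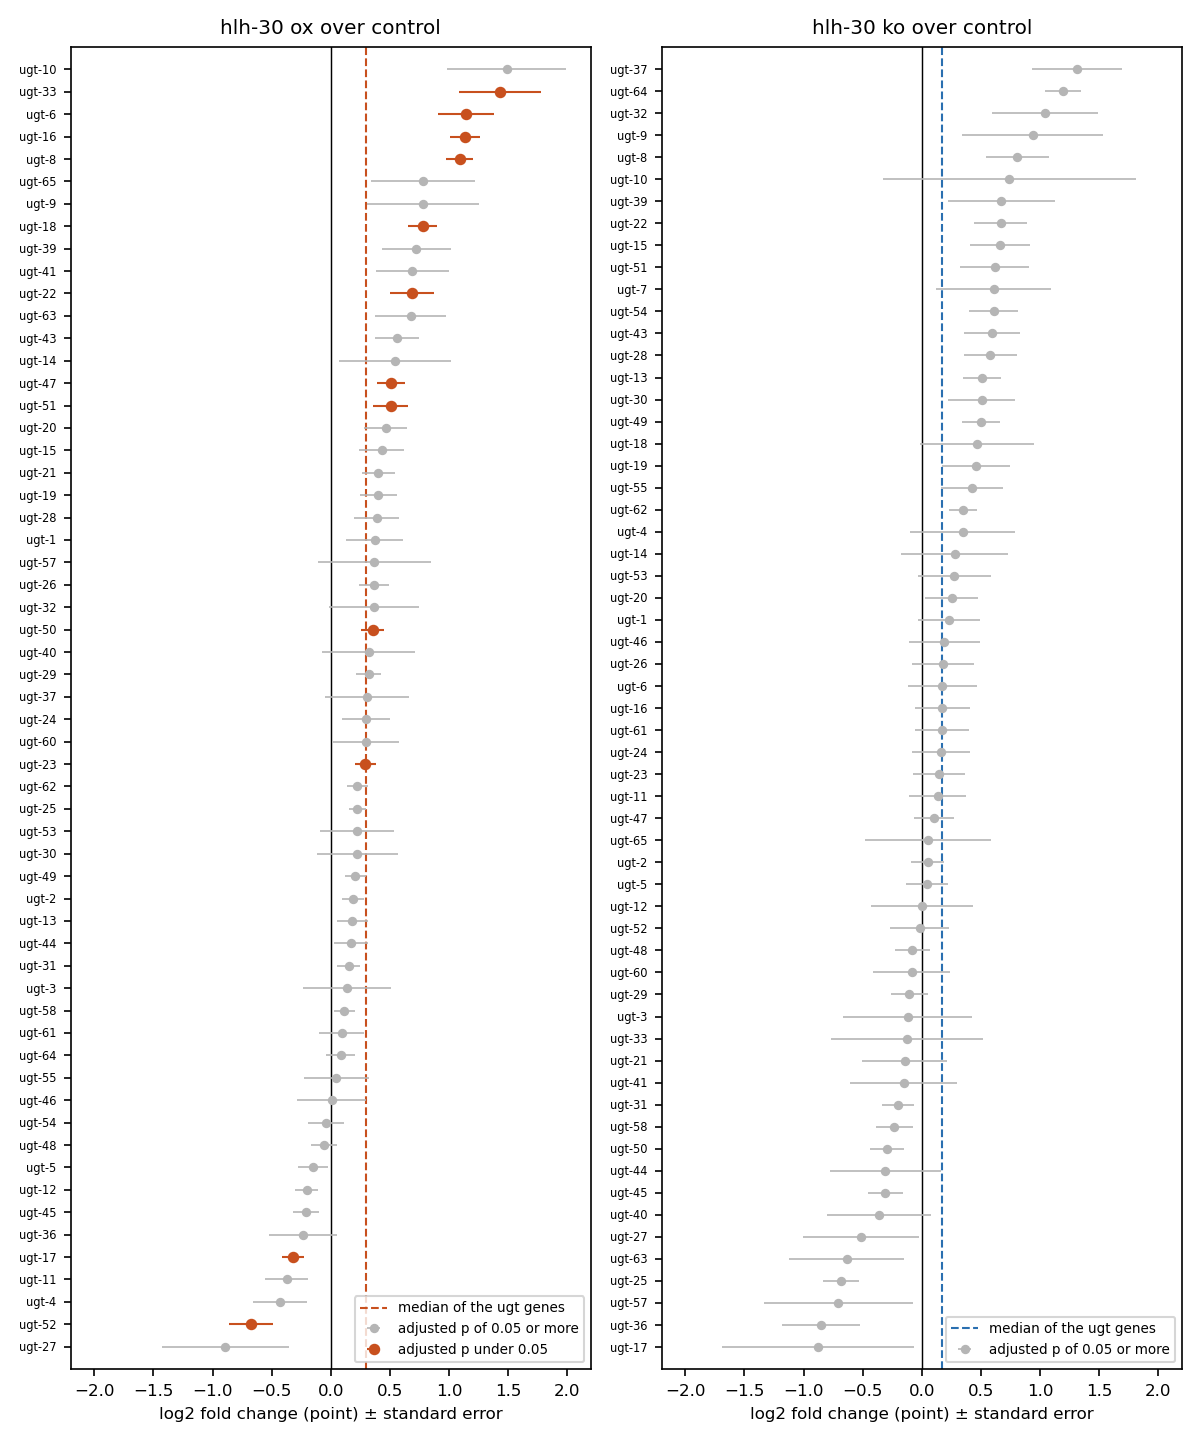
Log2 fold change with its standard error for each ugt gene tested, in ox over control (left, 58 genes) and ko over control (right, 59 genes), each in order of its own fold change; colour marks an adjusted p under 0.05. On the left the dashed median lies at 0.30 and 12 genes are coloured, and on the right the median lies at 0.17 and none is.

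Members of the same block differed in their calls. The block of *ugt-18*, *ugt-16* and *ugt-15*, 9.85 kb long, had 2 genes that rose, and *ugt-15* had a log2 fold change of 0.43 (adjusted p = 0.157, limma). In the block of *ugt-5*, *ugt-4*, *ugt-6* and *ugt-3*, 8.18 kb long, *ugt-6* alone passed the test, and the others lay between -0.43 and 0.14. The block of 7 genes around *ugt-8*, 24.3 kb long, ranged from -0.37 in *ugt-11* to 1.49 in *ugt-10*, with only *ugt-8* past the threshold. In a pair 8.64 kb long the neighbours were called in opposite directions, *ugt-47* at 0.51 and *ugt-17* at -0.32. None of the 5 tested genes passed in the block of *ugt-40*, *ugt-37*, *ugt-38*, *ugt-39*, *ugt-41* and *ugt-36*, where exons of *ugt-40* and *ugt-37* overlap on the same strand and their reads are uncertain. Of the 12 genes called, 6 were in blocks and 6 alone, and 8 were on chromosome V, which held 35 of the 58 tested members.

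**Figure D4:**
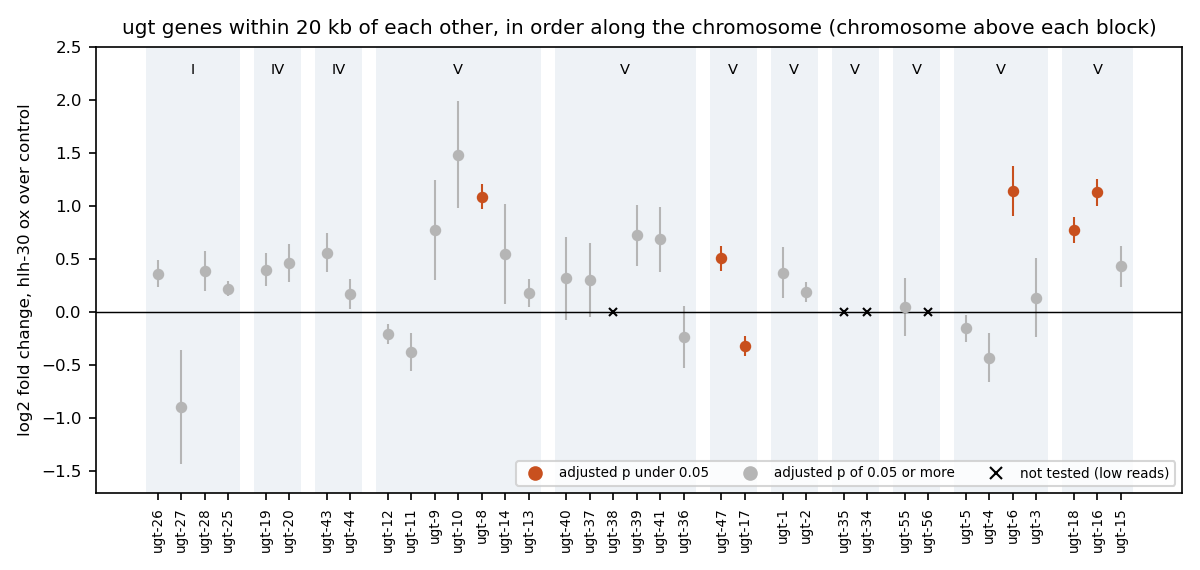
Log2 fold change of ox over control, with standard errors, for the 36 ugt genes that lie within 20 kb of another, in chromosomal order and grouped by block (shaded); crosses mark genes with too few reads to be tested. Genes past the threshold (orange) stand beside neighbours that are not, and *ugt-47* and *ugt-17* lie on opposite sides of 0.

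The ko libraries differed from each other more than the libraries of the other groups did. Over the members tested, the median absolute log2 difference between the libraries of a group was 0.379 for ko, against 0.170 for control in the same table, and 0.179 for ox. Over all genes tested it was 0.294 for ko and 0.142 for control. More than 2-fold apart were 12 members in the ko libraries, against 3 in the control libraries. The most abundant member in control worms, *ugt-17*, had 229 normalized reads in one ko library and 1598 in the other, against 1125 and 1105 in control libraries. The values of *ugt-18* were 1094 and 358 in ko libraries, against 430 and 477 in control libraries, and here it was the other ko library that was high. For *ugt-12* they were 354 and 958 in ko libraries, against 590 and 576 in control libraries. For 18 of the 59 members, the ko libraries lay on opposite sides of the control mean, against 10 of 58 for the ox libraries.

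**Figure D5:**
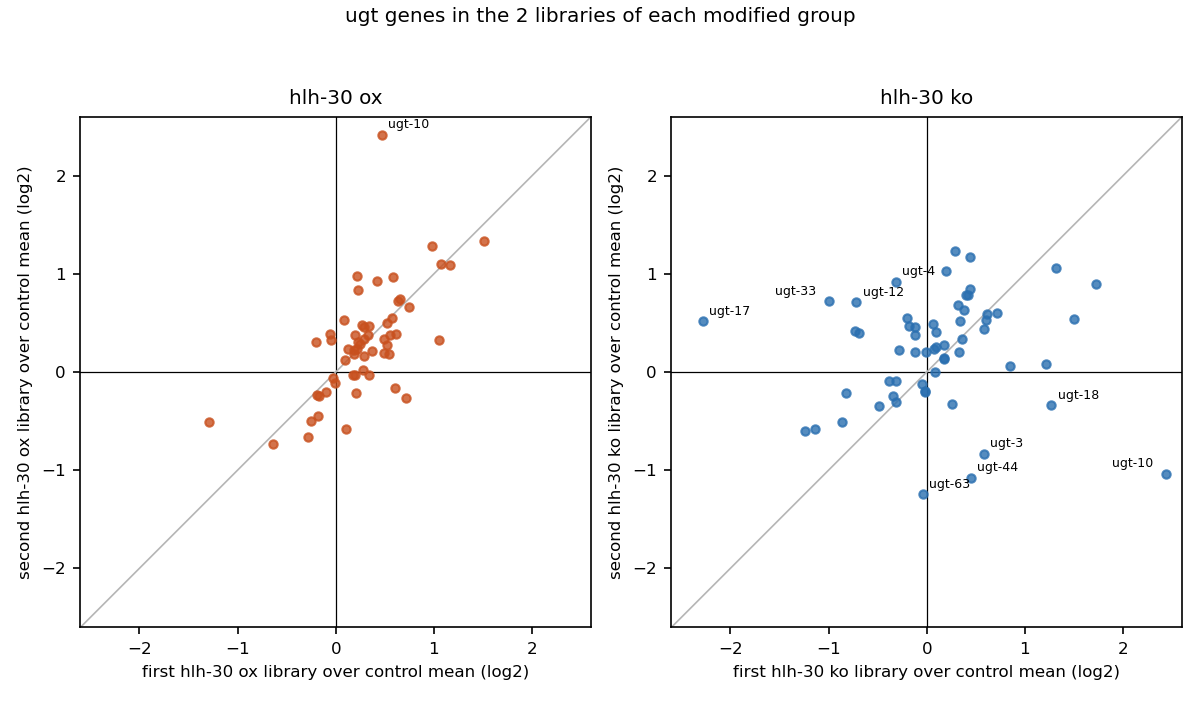
Each ugt gene in the first (x axis) and second (y axis) library of the ox group (left) and the ko group (right), both as log2 of normalized reads plus 1 minus that of the control mean; the grey line marks equal values. Ox points lie near the line except *ugt-10*, whereas ko points such as *ugt-17*, *ugt-10* and *ugt-18* lie far from it.

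With this spread, no ugt gene passed the test in ko against control, where 0.0127% of all 15749 genes tested did (limma with Benjamini-Hochberg adjustment). At an unadjusted p under 0.05, 11 of the 59 members tested were higher and 2 were lower, against 5.87% and 5.11% of all genes. The median log2 fold change of the members was 0.17, against 0.0014 over all genes, and 38 members lay above 0, against 50.2% of all genes. Groups did not overlap in 21 members that were higher (35.6%, against 22.4% of all genes) and 7 that were lower (11.9%, against 23.4% of all genes). Both the 38 and the 21 include *ugt-7*, which was kept only through its ko libraries, so its being higher was set by the limit on reads. The summed reads of the 65 listed genes were 15981 and 18841 in ko libraries, against 15516 and 15774 in control libraries. Of these, the first ko sum lay close to the controls. edgeR on the recovered reads called 0 members, with 14 at an unadjusted p under 0.05, and DESeq2 called 1, *ugt-64*, and 0.749% of all genes. Without the first ko library limma called 17 members (25.9% of all genes), and without the second it called 18 (17.6% of all genes). Of these, 6 members were called in both cases and 3 of the 6 had the same direction in both.

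A few ko values stood apart from control all the same, and 3 genes with the smallest p are given here, picked once the values were known. The gene *ugt-64* (C07G3.9) had 988.5 and 826 normalized reads in ko libraries, against 418 and 373 in control libraries, a log2 fold change of 1.19 (SE 0.15, adjusted p = 0.243, limma). DESeq2 on the recovered reads gave it an adjusted p of 2.48e-06. Its exons overlap C07G3.10 on the other strand. In ox libraries *ugt-64* had 461 and 392.5 normalized reads, against 425 and 379 in control libraries, which overlap. The abundant *ugt-25* (C10H11.3), which overlaps *mlst-8* on the other strand, had 593 and 752 normalized reads in ko libraries, against 1057 and 1093 in control libraries (log2 fold change -0.69, SE 0.15, adjusted p = 0.392, limma). In ox libraries *ugt-25* had 1267 and 1286, against 1076 and 1112 in control libraries. The third, *ugt-37*, had 96.7 and 53.7 normalized reads in ko libraries, against 28.1 and 28.9 in control libraries (adjusted p = 0.407, limma).

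The 12 genes called with overexpression had these values in the knockout table. The ko libraries had 378 and 629 normalized reads of *ugt-8*, against 257 and 301 in control libraries, both higher as in the ox libraries. For *ugt-22* they had 177 and 163, against 96.7 and 117 in control libraries, also without overlap. For *ugt-51* they had 245 and 439, against 230 and 199 in control libraries. Thus these genes were above control in all 4 modified libraries, with log2 fold changes in ko of 0.81, 0.67 and 0.61 that did not pass the test (adjusted p = 0.422, 0.422 and 0.487, limma). In contrast, *ugt-16* had 253 and 376 in ko libraries, against 286 and 261 in control libraries. The values of *ugt-6* were 68.2 and 66.6 in ko libraries, against 50.9 and 69.7 in control libraries, and of *ugt-33* were 9.16 and 32.4, against 16.6 and 21.9. In these genes the ko and control libraries overlapped. For *ugt-50* the ko libraries had 378 and 403, against 476 and 482 in control libraries, both below control (log2 fold change -0.29, adjusted p = 0.487, limma). The remaining genes had log2 fold changes in ko of -0.88 for *ugt-17*, -0.02 for *ugt-52*, 0.10 for *ugt-47*, 0.15 for *ugt-23* and 0.47 for *ugt-18*. As both comparisons use the same control libraries, shared directions are not independent of each other.

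The difference between the ox and ko worms was tested directly, with all 6 libraries scaled together. None of the 61 members tested passed, where 0.111% of all 16270 genes did (limma with Benjamini-Hochberg adjustment). At an unadjusted p under 0.05, 10 members were higher in ox and 4 were lower, against 4.86% and 6.28% of all genes, and edgeR called 0 members with 14 at an unadjusted p under 0.05. The smallest adjusted p was 0.0589, for *ugt-64*, with a log2 fold change of ox over ko of -1.11 (SE 0.15, limma). Next came *ugt-25*, at 0.91 (adjusted p = 0.0818, limma), and *ugt-50*, at 0.65 (adjusted p = 0.132, limma). A gene that passed in ox and not in ko was thus not shown to differ between them. Without the first ko library 17 members passed (12.8% of all genes), and without the second 13 did (6.96% of all genes).

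Other steps of the detoxification pathway were counted by lists of names in the ox comparison. Of 67 cytochrome P450 genes tested, which oxidize foreign compounds before conjugation, 10 rose and 0 fell (limma, with 2 lower at an unadjusted p under 0.05), and the median log2 fold change was 0.21. The largest was *cyp-33A1*, with 463 and 515 normalized reads in ox libraries, against 195 and 210 in control libraries (log2 fold change 1.27, SE 0.13, adjusted p = 1.01e-04, limma). Of 42 genes with names of the ABC transporter family, 11 rose and 5 fell, with a median of 0.26. Such transporters export conjugates and other compounds, but this does not hold for *abcf-2* and *abcf-3*, which were among the 5. Of the 42, the P-glycoprotein gene *pgp-12* had 26.9 and 32.6 normalized reads in ox libraries, against 11.6 and 9.12 in control libraries (log2 fold change 1.44, SE 0.44, adjusted p = 0.0446, limma). The glutathione transferases, which conjugate glutathione in place of a sugar, had 4 of 44 genes that rose and 1 that fell, with a median of 0.09. Of 30 short-chain dehydrogenase genes, 2 rose and 4 fell, with a median of -0.04. Against 6.71% of all genes, the share that rose was 14.9% of the P450 genes, 26.2% of the genes with ABC family names, 9.09% of the glutathione transferases and 6.67% of the dehydrogenases. Against 8.06% of all genes, the share that fell was 0% of the P450 genes, 11.9% of the genes with ABC family names, 2.27% of the glutathione transferases and 13.3% of the dehydrogenases.

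Of 4 genes of UDP-sugar supply tested, none passed the test, with 0 at an unadjusted p under 0.05 and a median of -0.0025 (limma). They were *sqv-4*, the dehydrogenase that makes UDP-glucuronic acid, *sqv-1*, which decarboxylates it, the nucleotide sugar transporter *sqv-7*, and *gale-1*, an epimerase of UDP-galactose. Of 14 regulators of detoxification and intestinal genes, *hlh-30* itself rose, as did *elt-2*, the GATA factor of the intestine, at 0.53 (adjusted p = 0.0132, limma), and *wdr-23*, an inhibitor of SKN-1, at 0.42 (adjusted p = 0.00107, limma). The nuclear receptor gene *nhr-48* fell by 0.31 on the log2 scale (adjusted p = 0.0276, limma). Thus 21.4% of the regulators rose and 7.14% fell, against 6.71% and 8.06% of all genes. The share that rose includes *hlh-30*, whose rise was set by the design, and *elt-2*, which is also counted among the intestinal markers. The stress regulator *skn-1* had a log2 fold change of 0.15 that did not pass (adjusted p = 0.0957, limma). In the ko comparison 0 of the 196 genes of these lists passed (limma), and the medians lay between -0.13 and 0.10. At an unadjusted p under 0.05 there were 17 (limma), against 5.87% of all genes higher and 5.11% lower. There edgeR called 0 of the 196 and DESeq2 called 1, the glutathione transferase gene *gsto-1*.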

How the data were processed

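Total RNA of whole worms was sequenced in 2 libraries for each of 3 groups on an Illumina NovaSeq instrument with paired ends, from NEBNext Ultra libraries. The submitters' processing notes name HISAT2, featureCounts and DESeq2; versions, genome build and use of strand are not given in the sources used here. The authors deposited 2 tables of normalized reads, a signal in which the reads on each gene are divided by a size factor of the library, with 22588 genes for ox and 22380 for ko. The deposited tables also hold group means, gene lengths, and a log2 fold change, a p-value and an adjusted p-value of the authors' own comparison, of which only the lengths were used. Multiplied by 1 factor per library, 100% of values came out as whole reads within 0.01, and the control reads agreed in all 21498 genes common to both tables. The columns of the ko libraries name the group but not which labelled library they are, so their numbers follow the table.

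The limma package (3.58.1, R 4.3.3) was fitted with a mean trend to log2 of normalized reads plus 1, for genes that reached 10 normalized reads in 2 or more libraries of a table, and genes were called at a Benjamini-Hochberg adjusted p under 0.05 over all genes tested (15918 for ox, 15749 for ko). Fold changes on this scale understate the change of low genes. For ox against ko, recovered reads of the genes in both tables were scaled together by the median of ratios. Recovered reads were also tested with edgeR 4.0.16 and DESeq2 1.42.0. On reads simulated with 200 changed genes, limma called 95.5% of them in 15813 genes for ox, with 9 unchanged genes. For ko it called 96% in 15754 genes, with 5 unchanged genes. Between the deposited ko libraries the median absolute log2 difference over all genes tested was 0.294, against 0.142 for control. The share called at that spread, or for changes under 2-fold, was not tested.

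The members and all lists were chosen with earlier results of these data known. Genes named were every member with an adjusted p under 0.05, the 5 highest per kb in control, those just inside or outside the limit on reads, *hlh-30*, and the 2 largest called changes of the detoxification lists; other genes were named after their values were seen. Alternatives were pseudocount 0.1, other limits on low reads, no mean trend, TMM scaling, all 6 libraries in 1 fit, edgeR, DESeq2, a replicate block, each library left out and a 2-fold threshold. The listed gene *ugp-1* was not found by name. Promoter and protein sequences were not analysed here. Coordinates are from Ensembl WBcel235 release 115.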

Additional observations from a re-analysis of the deposited data

How the results depend on the processing

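In the ox comparison 12 ugt genes were called. The count stayed at 12 with pseudocount 0.1, with TMM scaling and with at least 10 normalized reads in every library (57 members), and was 14 with edgeR. It was 5 with DESeq2, which gave an adjusted p for 48 members, and 4 with the 2-fold threshold. It was 0 when genes with low reads were kept (65 members), 0 without the mean trend and 0 with all 6 libraries in 1 fit. Leaving out 1 library gave counts from 0 to 11. The replicate block, with the number as a term, gave 16 calls, all 12 among them. The numbers do not pair the libraries (the replicate differences of ox and control had a correlation of 0.0273 over 15918 genes in 2 pairs), and no such fit was made for ko, whose columns carry no labelled number.

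In the ko comparison the count was 0 with every setting run except 1 with DESeq2 and 0 to 18 with 1 library left out. It was 17 without the first ko library and 18 without the second, of which 6 were called in both and 3 of those in the same direction. Such fits assume that the lone ko library varies like the control libraries. For *ugt-17* the log2 fold change in ko was 0.52 without the first ko library (adjusted p = 1.63e-06, limma) and -2.28 without the second, against -0.88 with both. In ox against ko the count ranged from 0 to 17 with 1 library left out, with 17 and 13 without the first and the second ko library. The median log2 fold change of the members ranged from 0.22 to 0.31 in ox with 1 library left out, and from 0.10 to 0.28 in ko, and kept its sign. With 2 libraries a group, errors were wide for some low members, such as *ugt-27* (standard error of the log2 fold change 0.54 in ox). They were also wide where the libraries of a group disagreed. The standard error of *ugt-10* was 0.51 in ox and 1.07 in ko, so differences of that size were not detectable for this gene.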
